A study of Mus musculus with 19 samples.

Results

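The 10 genes described here encode angiogenic ligands, a VEGF receptor and proteins of the endothelial tip cell. All were taken by symbol from a table of 20408 genes measured in the suprarenal abdominal aorta (SRA) of 19 male mice. They were the VEGF family ligands Vegfa, Vegfb, Vegfc and Pgf, the angiopoietins Angpt1 and Angpt2, the VEGF receptor Flt1, and Dll4, Apln and Esm1. The list rests on known function, though it and the gene lists set beside it were chosen with earlier results of these data known. Each of the 10 symbols matched a single row. The study sequenced poly(A) RNA 24 h after the start of a subcutaneous infusion by osmotic pump, to find what angiotensin II (Ang II), a vasoactive peptide that leads to abdominal aortic aneurysm in these mice, changes first in the wall and what the kinase IKKβ contributes. All mice were ApoE-/-, carried the tamoxifen-inducible recombinase SMA-CreERT2 under the Acta2 promoter, received tamoxifen, were on a C57BL6 background and ate regular chow. They were 8 weeks of age when tamoxifen was begun, and the infusion came later, after a period of rest. IKKβ+/+ mice (labelled Wild-type) were control littermates without floxed alleles, and IKKβ-/- mice (labelled knockout) carried Ikkb Flox/Flox, so that the deletion was directed at smooth muscle cells and not at the endothelium. The groups were 5 saline-infused and 5 Ang II-treated IKKβ+/+ mice, and 4 saline-infused and 5 Ang II-treated IKKβ-/- mice. The labels give the dose of Ang II as 500 to 1000 ng/min/kg, and the methods name the upper of these doses for the sequenced mice.

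New vessels sprout when an endothelial tip cell leads and stalk cells follow. VEGF-A acts on the receptor Kdr and raises Dll4 in the tip cell, and Dll4 then activates Notch in the neighbours, which holds them in the stalk state. Flt1 binds VEGF-A, VEGF-B and PlGF (encoded by Pgf) and limits the free VEGF-A. Angpt1, made largely by mural cells, activates the endothelial receptor Tek and keeps vessels quiet, whereas Angpt2, stored in endothelial cells, acts as a context-dependent antagonist. Esm1 (endocan) and Apln (apelin) are known as secreted products of tip cells. In the aortic wall these genes belong to the luminal endothelium, to smooth muscle cells and to the small vessels of the adventitia.

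The libraries held from 11382573 to 19906694 reads on genes. The mitochondrial gene mt-Co1 took the most reads in every library. Its share ran from 1.82% (X2370) to 3.91% (X2356) in IKKβ+/+ and from 2.36% (X2383) to 11.7% (X2406) in IKKβ-/- mice. The part of this share in the comparisons between genotypes was not tested. Ikbkb, which encodes IKKβ and was the gene deleted, averaged 699.7 ± 66.8 normalized counts over the IKKβ+/+ mice (SD, n = 10) and 533 ± 78.9 over the IKKβ-/- mice (SD, n = 9; two-sided exact permutation test, p = 0.000152). Of the 9 IKKβ-/- mice, 8 lay below every IKKβ+/+ mouse. The shallowest library, that of the saline-infused IKKβ-/- mouse X2406, stood farthest from the others, with a median r of 0.940 to all mice across genes. The Ang II-treated IKKβ+/+ mouse X2356 also stood apart, with a summed level of 6 neuron markers of 4564 normalized counts, against 559 in X2350 of the same group and 57.9 or less in the other mice. Without X2356, Esm1, Pgf and Angpt1 were still called in IKKβ+/+ mice, at log2 fold changes of 3.17, 2.44 and -1.42, and Angpt2 was called as well. Mouse numbers ran in a separate block for every group and no batch is stated, so that a batch and the groups cannot be told apart.

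The stretches before the transcription start are shown for Esm1, Pgf, Dll4 and Flt1. Esm1 rose with Ang II in both genotypes and Pgf in IKKβ+/+ mice. Dll4 and Flt1 were chosen because their stretch holds the letters of the NF-κB motif, the factor activated through IKKβ. Neither passed in the main fit (adjusted p = 0.128 and 0.198 in IKKβ+/+ mice, limma), though some other settings called them. The outer start of Vegfa also holds these letters and is not shown. Whether the letters act in the control of these genes was not tested. Each stretch is the 250 bases before a RefSeq start (GRCm38.p6), written 5′ to 3′ on the strand of the gene. Capitals mark the 10-base NF-κB consensus on either strand. The RefSeq start used for Pgf lies inside the longer gene model of the annotation, so that its stretch overlaps that model. The bases just after this start were not found in a Pgf transcript of that annotation, whereas those of Esm1, Dll4 and Flt1 were found in theirs.
Esm1, chr13:113209409-113209658, + strand: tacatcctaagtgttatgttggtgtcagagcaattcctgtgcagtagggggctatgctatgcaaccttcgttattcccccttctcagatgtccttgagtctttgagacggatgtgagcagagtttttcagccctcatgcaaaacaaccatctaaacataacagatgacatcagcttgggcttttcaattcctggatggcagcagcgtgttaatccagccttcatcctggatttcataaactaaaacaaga
Pgf, chr12:85177314-85177563, - strand: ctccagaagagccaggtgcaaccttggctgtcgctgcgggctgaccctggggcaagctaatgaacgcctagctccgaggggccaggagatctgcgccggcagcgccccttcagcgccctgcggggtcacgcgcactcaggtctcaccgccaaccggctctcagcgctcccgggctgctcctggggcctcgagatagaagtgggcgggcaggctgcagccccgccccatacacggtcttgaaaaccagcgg
Dll4, chr2:119325534-119325783, + strand: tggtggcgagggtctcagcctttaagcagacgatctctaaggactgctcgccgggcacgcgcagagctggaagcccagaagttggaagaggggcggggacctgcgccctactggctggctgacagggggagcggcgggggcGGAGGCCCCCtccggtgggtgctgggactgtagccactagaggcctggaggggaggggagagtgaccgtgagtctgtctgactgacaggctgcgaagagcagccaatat
Flt1, chr5:147726012-147726261, - strand: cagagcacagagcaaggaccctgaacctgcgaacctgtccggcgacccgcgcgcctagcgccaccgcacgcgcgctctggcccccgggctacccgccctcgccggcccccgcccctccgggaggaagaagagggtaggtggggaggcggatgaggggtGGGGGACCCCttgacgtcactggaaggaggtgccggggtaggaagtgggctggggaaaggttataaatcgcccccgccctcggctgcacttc

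RefSeq stretches were at hand for 8 of the 10 members, with a second start for Pgf and for Vegfa, and Angpt1 and Angpt2 had no entry. The 5 motifs were searched on both strands: the NF-κB consensus, ACGTG (the core of the hypoxia response element), TGANTCA (AP-1), TGGGAA (the core bound by the Notch factor RBPJ) and the CArG box of smooth muscle genes. The NF-κB letters stood before Dll4, Flt1 and the outer start of Vegfa, and 5.93% of all 32851 stretches of this length hold them. ACGTG stood before the inner start of Vegfa (16.6% of all stretches) and TGGGAA before both Vegfa starts (21.6% of all). The inner start, at 46025163, lies inside the gene (46016993 to 46032369), so that the letters before it lie within the gene. Whether they act in the control of Vegfa was not tested. TGANTCA and the CArG box, held by 6.75% and 1.47% of all stretches, were in none of the members. The stretches of Dll4 and Flt1 had 65.6% and 70.4% G and C, and that of Esm1 had 44%, against a median of 52.4% over all stretches. Esm1 and both starts of Pgf held none of the 5 motifs in this window. For both starts of Pgf and of Vegfa, and for Vegfc, the bases just after the start matched no annotated transcript of the gene.

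Ang II raised Esm1 7.31-fold in IKKβ+/+ and 6.49-fold in IKKβ-/- mice, raised Pgf in IKKβ+/+ mice and lowered Angpt1 in IKKβ+/+ mice. Of the 9 members with enough counts to test (10 normalized counts or more in 4 mice or more), 2 were called higher and 1 lower in IKKβ+/+ mice, where 8.66% of the 14845 genes tested were called, 4.33% higher and 4.33% lower. In IKKβ-/- mice 1 of the 9 was called, and it was higher, against 5.29% of all genes called and 2.59% called higher. Calls required an adjusted p below 0.1 together with a fold change beyond 1.2. The median log2 fold change of the 9 members was -0.19 in IKKβ+/+ and 0.25 in IKKβ-/- mice, and the median of all genes tested was 0.01 and 0.00. In IKKβ+/+ mice the Ang II-treated and saline-infused groups did not overlap for Esm1 and Pgf, which were higher, and for Angpt1 and Dll4, which were lower. Such separation was seen for 3.95% of all genes toward higher and 4.47% toward lower values. In IKKβ-/- mice only Esm1 of the 9 was separated, and it was higher, against 2.41% of all genes.

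**Figure D1:**
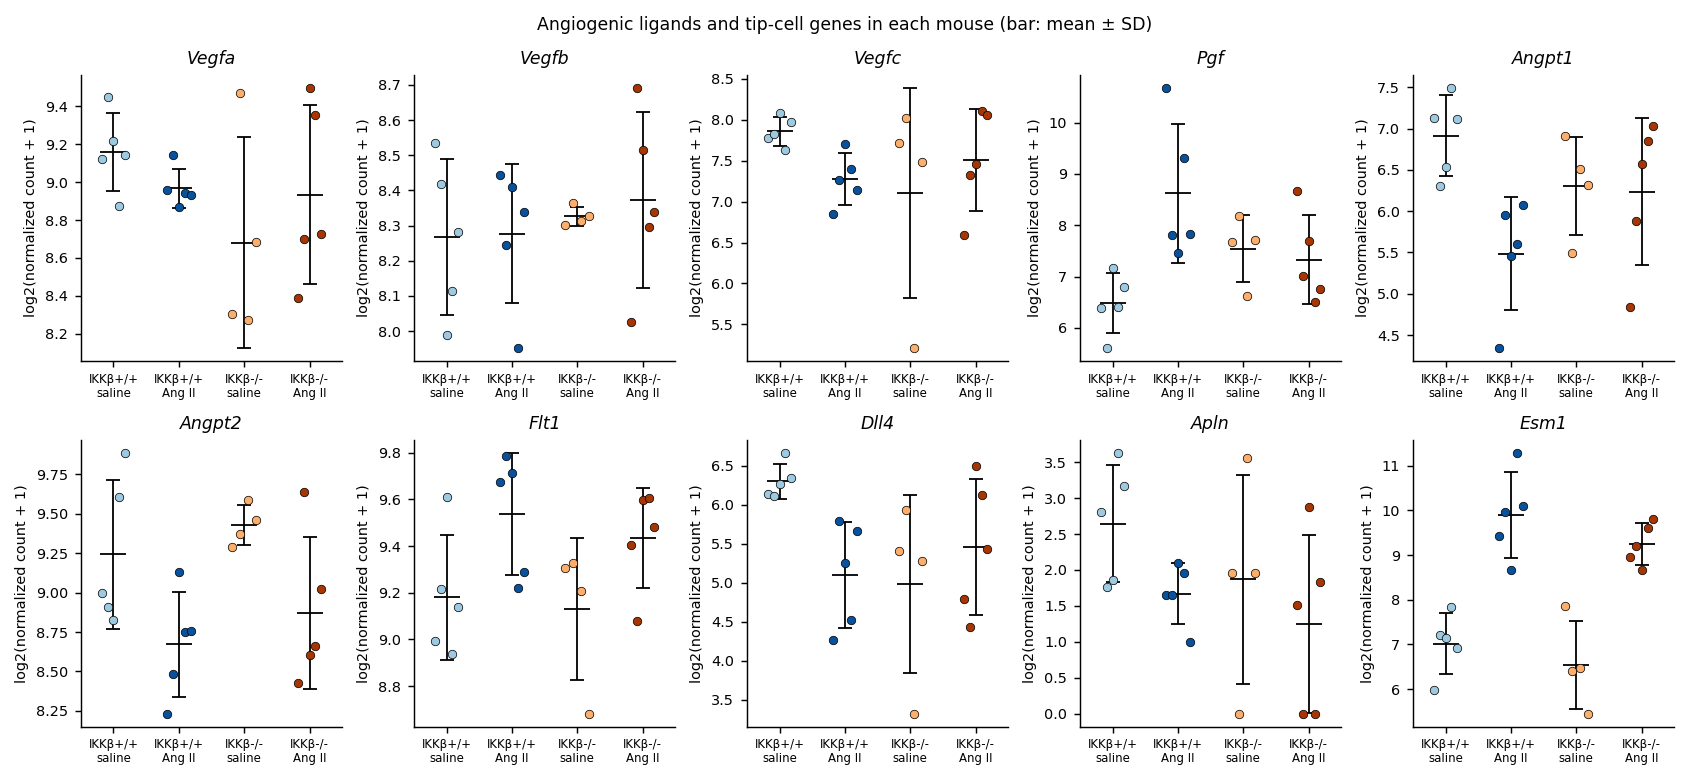
Each point is the log2(normalized count + 1) of 1 mouse (vertical axis), for the 10 members in the 4 groups, with the group mean and SD as a bar. Esm1 is higher in the Ang II-treated mice of both genotypes, while Pgf, Angpt1 and Dll4 separate the treatments in IKKβ+/+ mice and overlap in IKKβ-/- mice. The vertical axes differ between genes and do not start at 0.

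Esm1 (ENSMUSG00000042379.8, chromosome 13, 113209659 to 113218098, + strand of GRCm38) showed the largest change of the members. With saline, the 5 IKKβ+/+ mice had 61.9, 147, 141, 229 and 120.3 normalized counts of Esm1. With Ang II, the 5 IKKβ+/+ mice had 688, 991, 406, 2500.4 and 1102. The 4 saline-infused IKKβ-/- mice had 229.7, 84.3, 88.3 and 42.8 normalized counts, and the 5 Ang II-treated ones had 497, 585, 404, 776 and 902. The lowest Ang II-treated mouse of either genotype was above the highest saline-infused mouse. The mean of Esm1 went from 139.8 ± 60 to 1137 ± 809 normalized counts (SD, n = 5 and 5) in IKKβ+/+ mice, a log2 fold change of 2.87 (standard error 0.44, adjusted p = 0.00195, limma). The mean in IKKβ-/- mice went from 111 ± 81.6 to 633 ± 204 (SD, n = 4 and 5), a log2 fold change of 2.70 (standard error 0.47, adjusted p = 0.00565, limma). The difference between these effects was -0.17, with a 95% interval from -1.51 to 1.17, a range that includes changes larger than the fold threshold in both directions. Esm1 was called in both genotypes whichever mouse was left out, with a log2 fold change of 2.52 in IKKβ+/+ mice without X2358, the mouse with 2500.4 counts. The adipocyte markers of IKKβ-/- mice differed with treatment as well. Their sum was 141 to 724 normalized counts with saline and 783 to 15717 with Ang II, and 6 of the 6 tested were called higher. With the adipocyte score as a covariate, the log2 fold change of Esm1 in IKKβ-/- mice was 3.51 and its adjusted p was 0.116 in limma. With this covariate 4 genes of the whole table were called. The score ran from -3.32 to -0.84 with saline and from -0.61 to 3.48 with Ang II in these mice. The groups did not overlap, so that the fit cannot tell the score and the treatment apart.

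Pgf (ENSMUSG00000004791.7, chromosome 12, 85166635 to 85177790, - strand) encodes placental growth factor, a ligand of Flt1. The 5 saline-infused IKKβ+/+ mice had 83.2, 47.6, 144, 83.6 and 111 normalized counts of Pgf, and the 5 Ang II-treated ones had 1644, 224, 176, 634 and 228. The IKKβ-/- mice had 204, 288, 97.3 and 209 with saline and 404, 129, 206, 89.9 and 107 with Ang II. The treatments did not overlap in IKKβ+/+ mice and overlapped widely in IKKβ-/- mice, whose saline group reached higher than that of IKKβ+/+ mice. In IKKβ+/+ mice the log2 fold change of Pgf was 2.15 (standard error 0.52, adjusted p = 0.0258, limma), and it was 1.63 without mouse X2350, which held 1644 counts. The value in IKKβ-/- mice was -0.22, with a 95% interval from -1.37 to 0.93. The difference between the effects was -2.37, with an interval from -3.94 to -0.79. Its unadjusted p was 0.00532 and its adjusted p 0.288 in limma, so that it did not pass over all genes. DESeq2 on the recovered reads gave -2.73 with an adjusted p of 0.0895 and called it, with 279 genes (1.88% of those tested) called in all.

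The other VEGF ligands did not pass in either genotype. Vegfa (ENSMUSG00000023951.18, chromosome 17, 46016993 to 46032369, - strand), the main ligand of Kdr, had 468 to 699 normalized counts in saline-infused and 466 to 564 in Ang II-treated IKKβ+/+ mice, with a log2 fold change of -0.19 (95% interval -0.64 to 0.25). Vegfa in IKKβ-/- mice spread over 308 to 708 with saline and 335 to 723 with Ang II, with a log2 fold change of 0.25 (interval -0.22 to 0.72). Vegfb (ENSMUSG00000024962.13, chromosome 19, 6982473 to 6987651, - strand), a ligand of Flt1 alone among the VEGF receptors, lay between 247 and 413 in all 19 mice. Its log2 fold change was 0.01 in IKKβ+/+ (interval -0.27 to 0.28) and 0.05 in IKKβ-/- mice (interval -0.25 to 0.34), the narrowest intervals of the members. Vegfc (ENSMUSG00000031520.6, chromosome 8, 54077606 to 54187096, + strand), a ligand of the lymphatic receptor Flt4, had 218, 226, 269.6, 197 and 249 normalized counts in saline-infused IKKβ+/+ mice and 115, 153, 207, 168 and 140.2 in Ang II-treated ones. Of the latter, 4 of 5 lay below every saline-infused mouse, and the log2 fold change of -0.58 had an adjusted p of 0.412 in limma. With only these 2 groups in the fit, the adjusted p of Vegfc was 0.0464 and it was called. Without mouse X2406 the 4-group fit gave an adjusted p of 0.151, the lowest over all mice left out. This mouse had 36 normalized counts of Vegfc (20 reads), against 178 to 259 in the other saline-infused IKKβ-/- mice. The log2 fold change of Vegfc in IKKβ-/- mice was 0.40 with that mouse and -0.23 without it.

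**Figure D2:**
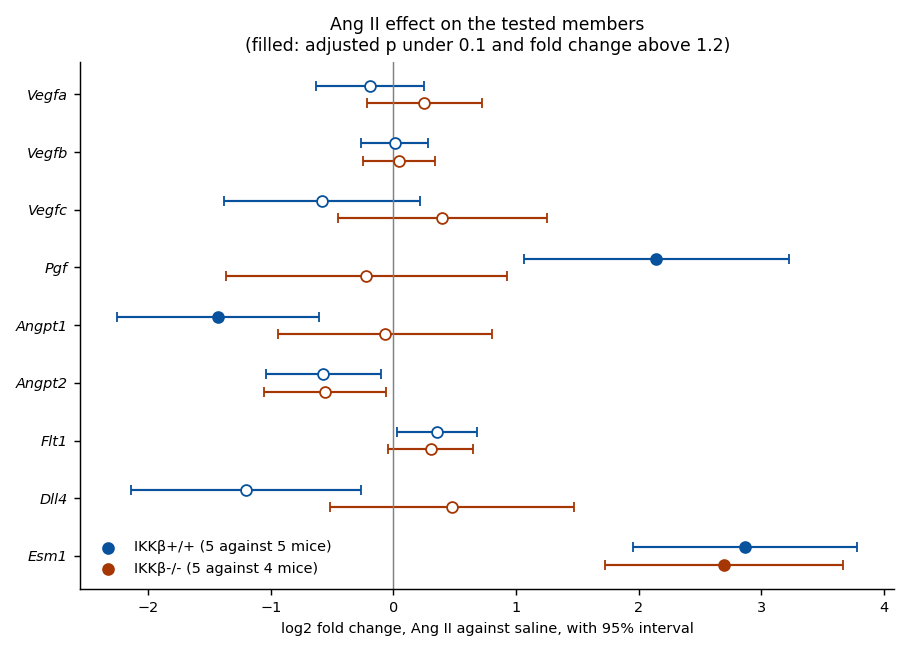
Points are the log2 fold change of Ang II against saline (horizontal axis) for the 9 members tested, in IKKβ+/+ (5 against 5 mice) and IKKβ-/- mice (5 against 4), with 95% intervals as bars. Filled points passed the threshold, and they are Esm1 in both genotypes and Pgf and Angpt1 in IKKβ+/+ mice.

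Angpt1 fell with Ang II in IKKβ+/+ mice. Angpt1 (ENSMUSG00000022309.9, chromosome 15, 42424723 to 42676977, - strand) had 138, 77.8, 91.6, 179 and 138 normalized counts in saline-infused and 19.3, 60.8, 42.8, 47.8 and 66.6 in Ang II-treated IKKβ+/+ mice, without overlap. The log2 fold change came to -1.43 (standard error 0.40, adjusted p = 0.0463, limma). The adjusted p rose above 0.1 without X2350 (0.145), X2358 (0.101), X2376 (0.115) or X2378 (0.104), and with the endothelial score as a covariate (0.102, at a log2 fold change of -1.45), while the log2 fold change stayed between -1.58 and -1.14 over all mice left out. Angpt1 in IKKβ-/- mice had 119, 44.2, 90.1 and 78.4 normalized counts with saline and 27.7, 57.9, 94, 114 and 129.8 with Ang II, and the groups overlapped. The log2 fold change there was -0.07 (interval -0.95 to 0.80), and the difference between genotypes, 1.36, had an adjusted p of 0.398 in limma. Angpt2 (ENSMUSG00000031465.6, chromosome 8, 18690263 to 18741562, - strand) did not pass in either genotype. Its log2 fold change was -0.57 in IKKβ+/+ mice (adjusted p = 0.152, limma) and -0.56 in IKKβ-/- mice (adjusted p = 0.225, limma), and the interval of the difference, from -0.67 to 0.70, was wide. Angpt2 had 509, 479, 452, 779 and 945 normalized counts in saline-infused and 299.9, 358, 558, 429 and 432 in Ang II-treated IKKβ+/+ mice. Among IKKβ-/- mice 4 of the 5 Ang II-treated values, between 344 and 519, lay below all 4 saline values, between 624 and 769, and mouse X2383 had 796. Without X2383, Angpt2 was called in IKKβ-/- mice, with a log2 fold change of -0.75 and an adjusted p of 0.058 in limma. Angpt2 was called in IKKβ+/+ mice without X2356 (-0.69, adjusted p = 0.0758, limma), without X2383 (adjusted p = 0.0929), with array quality weights (0.069) and in DESeq2 (0.0896).

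Flt1 and Dll4 did not pass in the fit of all 19 mice with equal weights, and some other settings called them in IKKβ+/+ mice. Flt1 (ENSMUSG00000029648.13, chromosome 5, 147561604 to 147726011, - strand), the receptor that traps VEGF-A, had 508, 594, 782, 489.9 and 563 normalized counts in saline-infused and 817, 883, 838, 595 and 625 in Ang II-treated IKKβ+/+ mice. Of the Ang II-treated mice, 3 of 5 exceeded the saline range. Flt1 in IKKβ-/- mice had 631, 642, 591 and 410.0 with saline and 676, 541, 773, 779 and 715 with Ang II, and 4 of 5 Ang II-treated mice exceeded the saline range. The log2 fold change of Flt1 was 0.36 (adjusted p = 0.198, limma) in IKKβ+/+ and 0.30 (adjusted p = 0.351, limma) in IKKβ-/- mice. With array quality weights Flt1 was called in IKKβ+/+ mice, at an adjusted p of 0.0589 in limma. Dll4 (ENSMUSG00000027314.6, chromosome 2, 119325784 to 119335962, + strand), the Notch ligand of the tip cell, had 69.2, 68.3, 75.8, 101 and 80.5 normalized counts in saline-infused and 18.2, 54.4, 37.3, 22 and 49.7 in Ang II-treated IKKβ+/+ mice. The groups did not overlap, and the log2 fold change of -1.21 had an adjusted p of 0.128 in limma and 0.068 in DESeq2, which called it among 12.7% of all genes. In limma Dll4 was called with only the groups compared (adjusted p = 0.0335), with array quality weights (0.067), with the adipocyte covariate (0.0413) and without mouse X2406 (0.0628). Dll4 in IKKβ-/- mice had 41.5, 60, 9.01 and 37.7 with saline and 26.8, 20.6, 89.8, 69 and 42.4 with Ang II. The log2 fold change there was 0.48, and -0.08 without mouse X2406, which had 9.01 counts (5 reads). With saline, all 4 IKKβ-/- mice were below the IKKβ+/+ range of Dll4, a separation toward lower values that 4.08% of all genes showed.

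Endothelial marker levels differed between libraries, and adding them to the fit changed the members' values to different degrees. Over 14 endothelial markers, 3 were called lower with Ang II in IKKβ+/+ mice (Tek, Nos3 and Cldn5) and 0 higher, against 4.33% of all genes called lower, and their median was -0.67 on the log2 scale, against 0.01 over all genes. Fibroblast markers had a median of -0.56, with 1 of 6 called lower, and smooth muscle markers had a median of 0.33, with 2 of 6 called higher. The part of the fibroblast and smooth muscle markers in the members' values was not tested. The sum of the 14 markers ranged from 26789.9 to 43379.5 normalized counts in saline-infused and from 15956 to 30062 in Ang II-treated IKKβ+/+ mice, and from 17556 to 35372 and 10973 to 33438 in IKKβ-/- mice. In whole tissue, fewer endothelial cells and less RNA in each of them cannot be told apart. With the endothelial score as a covariate, Dll4 had a log2 fold change of -0.56 (adjusted p = 0.488, limma) in IKKβ+/+ mice in place of -1.21. With the same covariate Flt1 was called higher, at 0.57 (adjusted p = 0.0547, limma), and Angpt2 lower, at -0.78 (adjusted p = 0.0912, limma). Esm1 and Pgf changed little, at 2.70 and 2.11, and both stayed called.

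**Figure D3:**
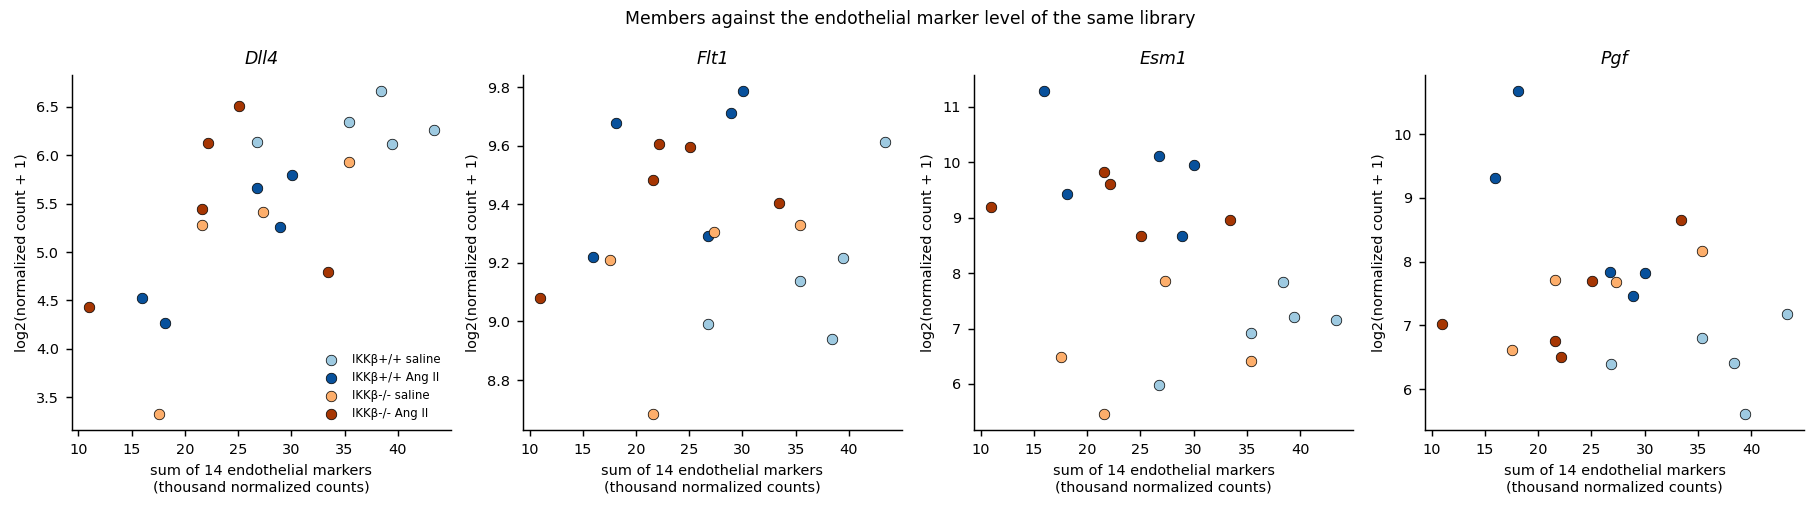
Each point is 1 of the 19 mice, with the sum of the 14 endothelial markers in units of 1000 normalized counts on the horizontal axis and log2(normalized count + 1) of Dll4, Flt1, Esm1 or Pgf on the vertical axis, in the colours of the 4 groups. The 4 lowest Dll4 values lie in the 4 libraries with the lowest marker sums, and the Esm1 values of Ang II-treated mice lie above those of saline-infused mice across the range.

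Apln (ENSMUSG00000037010.7, chromosome X, 48025146 to 48034853, - strand), the ligand of the endothelial receptor Aplnr, was too low to test with the other genes. It reached at most 12 reads in any mouse, and 11.4 normalized counts at the highest. The summed reads were 37 in saline-infused and 11 in Ang II-treated IKKβ+/+ mice, a ratio per depth of 0.382 with an exact 95% interval from 0.176 to 0.764 that covers counting error only. For IKKβ-/- mice they were 13 and 10, a ratio of 0.643 (interval 0.252 to 1.59). Over mice, the difference on the log2 scale was -0.98 in IKKβ+/+ mice (two-sided exact permutation test, p = 0.0635, adjusted p = 0.254 over 4 comparisons), so that the difference did not exceed the spread between mice.

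Per kilobase of exon, Vegfb was the most abundant member in saline-infused IKKβ+/+ mice, at 193 ± 29.5 normalized counts per kb (SD, n = 5). It was followed by Angpt2 at 171 ± 59.2, Vegfa at 134 ± 19.4, Vegfc at 94.7 ± 11.4, Esm1 at 66.7 ± 28.6, Flt1 at 43.5 ± 8.61, Pgf at 32.3 ± 12.3, Angpt1 at 24 ± 7.83 and Dll4 at 20.5 ± 3.41 normalized counts per kb. Each of these overlapped its neighbour in the order across mice, and Apln, at 1.93 ± 1.2, lay apart from Dll4. With Ang II, Esm1 came first in both genotypes, at 542 ± 386 per kb in IKKβ+/+ mice (SD, n = 5) and 302 ± 97.2 per kb in IKKβ-/- mice (SD, n = 5), and Pgf moved to second place in IKKβ+/+ mice at 200.2 ± 214 per kb. In each case the mice overlapped with those of the next gene. In Ang II-treated IKKβ+/+ mice Dll4 and Angpt1, at 9.43 ± 4.19 and 9.12 ± 3.54 per kb, lay below Flt1 without overlap.

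Between genotypes, 0 of the 9 members passed with saline (5.47% of all genes) or with Ang II (0.128% of all genes) in limma, and unadjusted p-values under 0.05 were reached by 2 and 1 of them, against 19.2% and 14.3% of all genes. These comparisons share mice with those above. With saline, Dll4 was at 37.1 ± 21.1 normalized counts (SD, n = 4) in IKKβ-/- and 78.9 ± 13.1 (SD, n = 5) in IKKβ+/+ mice, a log2 fold change of -1.32 (adjusted p = 0.136, limma). Vegfa was lower in IKKβ-/- mice with saline by a log2 fold change of -0.48 (adjusted p = 0.251, limma). Pgf was higher, at 199 ± 78.1 against 93.8 ± 35.8, with 3 of 4 mice above every IKKβ+/+ mouse (log2 fold change 1.07, adjusted p = 0.294, limma). With only the groups compared in the fit, Dll4 and Pgf were called, at adjusted p-values of 0.0979 and 0.092. With Ang II, Pgf was lower in IKKβ-/- mice, at 187 ± 129 against 581 ± 622 (SD, n = 5 each), a log2 fold change of -1.30 (adjusted p = 0.275, limma). For the difference of the Ang II effect between genotypes, 0 of 9 members and 0 of all 14845 genes passed in limma, and 3 members (Pgf, Dll4 and Angpt1) and 11.1% of all genes had an unadjusted p under 0.05. The differences of Dll4 and Angpt1 were 1.68 and 1.36. Clock genes also differed between the saline groups: 11 of 13 were called, 8 higher and 3 lower in IKKβ-/- mice, and 10 of 13 were called for Ang II in IKKβ-/- mice against 1 in IKKβ+/+ mice. With the clock score as a covariate the difference of Pgf was -1.80 (adjusted p = 0.572, limma). The score is a plain mean over these genes, so that those going up and those going down partly offset each other in it. In IKKβ-/- mice that score ran from 0.47 to 0.87 with saline and from -0.51 to 0.24 with Ang II. The groups did not overlap, so that this fit cannot tell the score and the treatment apart.

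Ratios of the antagonist Angpt2 to the activating ligand Angpt1, and of the ligand Vegfa to its trap Flt1, were taken within each library. The log2 ratio of Angpt2 to Angpt1 was 1.87, 2.61, 2.29, 2.11 and 2.77 in saline-infused and 3.89, 2.54, 3.68, 3.14 and 2.68 in Ang II-treated IKKβ+/+ mice. It was higher with Ang II by 0.86, with 3 of 5 mice above every saline value (two-sided exact permutation test, p = 0.0397, adjusted p = 0.127 over 8 tests). For IKKβ-/- mice the ratio was 2.39, 3.87, 3.08 and 3.15 with saline and 3.59, 3.76, 2.03, 1.81 and 1.99 with Ang II, a difference of -0.49 (exact p = 0.429, adjusted p = 0.571). With saline it was higher in IKKβ-/- than in IKKβ+/+ mice by 0.79 (exact p = 0.0476, adjusted p = 0.127). The log2 ratio of Vegfa to Flt1 was lower with Ang II by -0.55 in IKKβ+/+ mice, with 3 of 5 mice below every saline value (exact p = 0.0238, adjusted p = 0.127), and differed by -0.05 in IKKβ-/- mice (exact p = 0.841, adjusted p = 0.841). None of the 8 tests passed after adjustment.

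**Figure D4:**
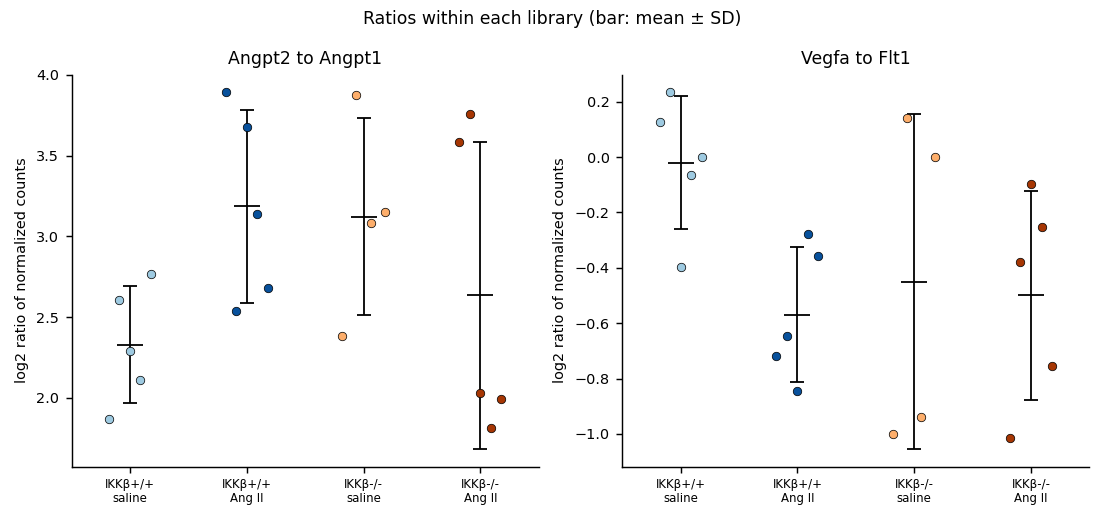
Each point is the log2 ratio of normalized counts within the library of 1 mouse (vertical axis), Angpt2 to Angpt1 on the left and Vegfa to Flt1 on the right, in the 4 groups with mean and SD. In IKKβ+/+ mice the first ratio is higher and the second lower with Ang II by 0.86 and 0.55 on average, and the groups overlap in both panels.

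Among the receptors and co-receptors of these ligands, 4 of 10 were called lower with Ang II in IKKβ+/+ mice and 0 higher, with a median of -0.56 on the log2 scale. For this and the following lists, the shares over all genes were 4.33% lower and 4.33% higher in IKKβ+/+ mice and 2.69% lower and 2.59% higher in IKKβ-/- mice. These were Tek, the receptor of both angiopoietins, at -1.08, the phosphatase Ptprb, which restrains Tek, at -1.11, the VEGF co-receptor Nrp1 at -0.53 and Notch1, which receives Dll4, at -0.58. The adjusted p-values were 0.0299, 0.0321, 0.05 and 0.0855 in limma. Among these receptors 1 of 10 was called higher in IKKβ-/- mice, Kdr, the signalling receptor of VEGF-A, which went from 52.1 ± 20.5 to 238 ± 168 normalized counts (SD, n = 4 and 5; log2 fold change 1.79, adjusted p = 0.099, limma). The median of the receptors was 0.01 there. In the same mice 6 of 6 adipocyte markers (median log2 fold change 4.37) and 2 of 6 lymphatic endothelial markers (median 1.19) were called higher, and their part in the value of Kdr was not tested. Tek, Tie1 and Kdr also belong to the endothelial markers. In IKKβ+/+ mice the median of those 14 markers was -0.67, with 3 called lower and 0 higher. Their part in the values of the receptors, and of the sprouting, Notch and stalk genes that follow, was not tested.

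Of 10 other genes of sprouting, 1 was called higher and 1 lower in IKKβ+/+ mice and 0 in IKKβ-/- mice. Plaur, the urokinase receptor, went from 143 ± 27.7 to 499 ± 305 normalized counts (SD, n = 5 each; log2 fold change 1.59, adjusted p = 0.00991, limma), and Plxnd1, a semaphorin receptor, fell by 0.71 (adjusted p = 0.0115, limma). The smallest p-values in IKKβ-/- mice were those of Kcne3 at -0.95 and Plxnd1 at -0.23 (adjusted p = 0.208 and 0.477, limma). Of 9 Notch and stalk genes, 2 were called lower in IKKβ+/+ mice, the ligand Dll1 at -1.74 and the target Hey2 at -0.60 (adjusted p = 0.0341 and 0.018, limma), with a median of -0.44. Of the same 9 genes 0 were called in IKKβ-/- mice, with a median of -0.04, and the smallest p-values were those of Nrarp at -0.94 and Hey1 at 0.53 (adjusted p = 0.141 and 0.161, limma).

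Regulators and targets of the hypoxia response, a main driver of Vegfa, had medians of 0.03 in IKKβ+/+ and 0.12 in IKKβ-/- mice on the log2 scale, over the 14 of 15 tested. Epas1, which encodes HIF-2α, was the only one called, lower in IKKβ+/+ mice at -0.42 (adjusted p = 0.0902, limma). It is a regulator, and the hypoxia-induced gene Egln3, named here after its values were seen, had 1.12 (adjusted p = 0.102, limma). P4ha1 at 0.67 and Epas1 at -0.41 had the smallest p-values in IKKβ-/- mice (adjusted p = 0.11 and 0.153, limma). Among 9 angiogenesis inhibitors, Thbs2 (thrombospondin 2) was called lower in both genotypes, at -0.70 and -0.82 (adjusted p = 0.0235 and 0.0173, limma). Adamts1, a protease that binds VEGF-A, was called in opposite directions. It went from 3809 ± 1061 to 8182 ± 3308 normalized counts in IKKβ+/+ mice (SD, n = 5 each) and from 9379.7 ± 3703 to 3882 ± 1412 in IKKβ-/- mice (SD, n = 4 and 5), with log2 fold changes of 1.05 and -1.25 (adjusted p = 0.0507 and 0.0377, limma). The difference of -2.31 had an unadjusted p of 3.81e-05 and an adjusted p of 0.215 in limma, the lowest adjusted p reached among all genes tested. For the difference of the Ang II effect, 0 genes of the 5 lists were called. With saline, Nrp1 and Plxnd1 were lower in IKKβ-/- than in IKKβ+/+ mice, at -0.73 and -0.61, and Adamts1 was higher, at 1.24 (adjusted p = 0.0367, 0.0547 and 0.0571, limma).

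**Figure D5:**
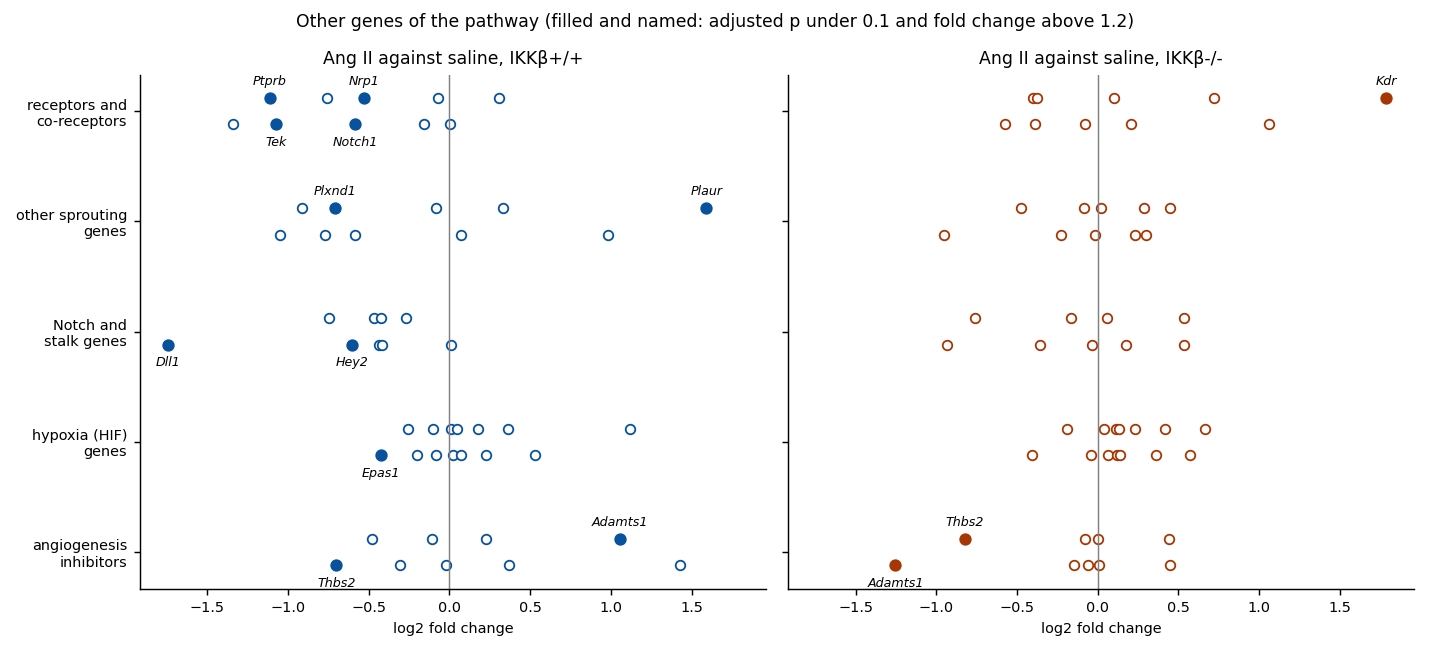
Each point is the log2 fold change of Ang II against saline (horizontal axis) of 1 gene of the 5 lists (rows), in IKKβ+/+ mice on the left and IKKβ-/- mice on the right, with called genes filled and named. Of the 52 genes, 11 are filled on the left, 9 of them lower except Plaur and Adamts1, and 3 on the right, Kdr, Thbs2 and Adamts1.

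The genes whose values were most like those of the called members were taken from the 11420 other tested genes with a mean of at least 50 normalized counts, over the 19 mice after subtracting the mean of each group. For Pgf they were Psmd11 (r = 0.92), Pvr (r = 0.92) and Emp3 (r = 0.91). For Angpt1 they were Etfrf1, Tcaf2 and Lamp2, with r of 0.86, 0.86 and 0.85. For Esm1 they were Plod2, Fmnl1 and Uty, with r of 0.79, 0.77 and 0.76. The values share the library and its depth.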

How the data were processed

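Poly(A) RNA of the SRA of 19 mice was sequenced as single reads from stranded libraries. The authors used Trimmomatic 0.35 for trimming and STAR 2.7.1a for alignment to GRCm38, counted reads per Gencode gene, and normalized with DESeq2 1.30.1. The values deposited by the authors are a signal, namely reads over the size factor of the mouse. Of these values, 100% were whole multiples of 1 read within 0.01 read, and the reads were recovered from them. Precision is limited by depth for genes with few reads, such as Apln and Dll4.

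Genes that reached 10 normalized counts in 4 mice or more (14845 of 20408) were compared on log2(normalized count + 1) with limma 3.58.1 (lmFit, eBayes with trend) in R 4.3.3, with the 4 group means in a single fit of all 19 mice. On this scale the fold change of low genes is understated. Tests were two-sided, with Benjamini-Hochberg adjustment over all genes tested, and genes were called at an adjusted p below 0.1 together with a fold change beyond 1.2, thresholds used in the study. Single ratios and Apln were compared by exact permutation tests over mice. The test of Apln was added after the data were seen. Labels name separate mice, so p-values measure the spread between these mice.

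Alternatives were a pseudocount of 4, no filter, only the groups compared, array quality weights, TMM scaling and the quasi-likelihood test of edgeR 4.0.16, DESeq2 1.42.0, a stricter adjusted p (0.05), a larger fold change (1.5), a marker score as a covariate (the mean over a list of the centred log2 values) and each mouse left out. Members, gene lists and alternatives were chosen with earlier results of these data known. Named were all 10 members, in each list of the pathway the genes called or, in its absence, at most 2 with the smallest p, and the 3 genes most like each called member. Lengths are unions of exons in GENCODE M21 (GRCm38). The fit was tested on simulated data.

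Counts of genes called higher and lower with Ang II follow for the marker lists other than endothelium, adipocytes and clock. For each list, IKKβ+/+ mice come first and IKKβ-/- mice second. Smooth muscle had 2 and 0, then 0 and 0 of 6, and lymphatic endothelium 0 and 0, then 2 and 0 of 6. Mural cells had 0 and 0, then 1 and 0 of 6, and fibroblasts 0 and 1, then 0 and 0 of 6. Macrophages had 0 of 7 in both, and striated muscle 1 and 1, then 0 and 1 of 6. Erythroid cells had 0 of 5 and neurons 0 of 1 in both. Over all genes, 4.33% were called higher and 4.33% lower in IKKβ+/+ mice, and 2.59% and 2.69% in IKKβ-/- mice. The smooth muscle markers were abundant in every mouse, with a summed level of at least 304360 normalized counts.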

Additional observations from a re-analysis of the deposited data

How the results depend on the processing

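No paired analysis was possible because the groups share no replicate number. Under the alternatives that keep all mice, 488 of the values of single members kept their direction and their side of the threshold, 16 passed it newly, 2 no longer passed (Angpt1 in IKKβ+/+ mice with the endothelial covariate, and Esm1 in IKKβ-/- mice with the adipocyte covariate, 3.51 with an adjusted p of 0.116 in limma) and 29 changed sign. Of the counts and ratios, 104 stayed within the limits and 30 did not. The cause was not tested.

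In IKKβ+/+ mice with Ang II, 5 members were called with only the groups compared, 6 with array quality weights and 5 with DESeq2. All genes called were 2074 with the weights, 1887 with DESeq2 and 638 at an adjusted p under 0.05. They were 752 above a fold change of 1.5 and 659 with the endothelial covariate, in place of 1286. With only the groups compared, their number stayed within the limits. In IKKβ-/- mice, 0 members were called with the adipocyte covariate. All genes called there were 295 with only the groups compared and 412 at an adjusted p under 0.05, in place of 785. They were 4 with the adipocyte and 27 with the clock covariate. Both scores were separated by treatment in IKKβ-/- mice, so that these fits cannot tell score and treatment apart. For the difference between genotypes, 1 member was called by DESeq2, and all genes called were 76 with the weights, 3 in edgeR and 279 in DESeq2, in place of 0. With saline, 2 members differed between genotypes with only the groups compared and 3 with the weights, and all genes called were 1420 with only the groups compared, 1902 with the weights, 1437 in DESeq2, 136 at an adjusted p under 0.05, 504 above a fold change of 1.5, 38 with the adipocyte and 5 with the clock covariate, in place of 812. With Ang II, all genes called between genotypes were 1 with only the groups compared, 521 in DESeq2, 0 at an adjusted p under 0.05 and 0 with the adipocyte covariate, in place of 19.

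The members that changed sign were called in neither fit. In IKKβ+/+ mice with Ang II they were Vegfa at 0.0082 with the endothelial covariate, and Vegfb at -0.032 with the weights and -0.062, -0.00077 and -0.014 with the endothelial, adipocyte and clock covariates. In IKKβ-/- mice they were Vegfa, Vegfb, Vegfc and Dll4 at -0.20, -0.039, -0.11 and -0.88 with the adipocyte covariate, Vegfb, Pgf and Angpt1 at -0.047, 0.55 and 0.086 with the clock covariate, and Angpt1 at 0.023 in edgeR and in DESeq2. For the difference they were Vegfb at -0.039 and -0.032 with the adipocyte and clock covariates, and Esm1 at 0.034, 0.54 and 0.066 with the endothelial, adipocyte and clock covariates. Between genotypes with saline they were Vegfb and Angpt2 at -0.0091 and -0.015 with the endothelial covariate, Angpt2 at -0.10 with the clock covariate, and Flt1 at 0.026 with the weights and 0.15, 0.042 and 0.030 with the endothelial, adipocyte and clock covariates. With Ang II they were Vegfa at 0.025 in edgeR and 0.023 in DESeq2, and Dll4 at -0.061 with the adipocyte covariate. The difference of medians of the log2 ratio of Vegfa to Flt1 in IKKβ-/- mice was 0.089.

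Leaving out each mouse gave 2 to 4 members (Dll4 gained without X2406, Angpt2 without X2356 or X2383) and 431 to 1918 genes called in IKKβ+/+ mice, 1 to 2 members and 433 to 1082 genes in IKKβ-/- mice, and 0 to 79 genes for the difference. Between genotypes it gave 24 (without X2406) to 1727 genes (without X2409) with saline and 0 to 553 (without X2356) with Ang II. Members that changed sign on leaving out a mouse were Vegfb in IKKβ+/+ mice (-0.060 to 0.091), Vegfb, Vegfc, Angpt1 and Dll4 in IKKβ-/- mice (-0.033 to 0.13, -0.23 to 0.70, -0.34 to 0.28 and -0.077 to 0.79), Vegfb, Angpt2, Flt1 and Esm1 for the difference (-0.045 to 0.12, -0.18 to 0.13, -0.20 to 0.034 and -0.54 to 0.26), Vegfb and Flt1 between genotypes with saline (-0.011 to 0.13 and -0.11 to 0.10) and Vegfa with Ang II (-0.18 to 0.10). The log2 ratio of Vegfa to Flt1 changed sign in IKKβ-/- mice (-0.23 to 0.15) and between genotypes with Ang II (-0.032 to 0.20).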
